A study of Homo sapiens with 15 samples.

Results

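New and older RNA were set against each other within the G2 libraries of a SLAM-seq study of U2OS, a human osteosarcoma cell line. SLAM-seq marks RNA made during a short pulse: 4-thiouridine enters new transcripts, iodoacetamide-type alkylation changes it, and reverse transcription then reads it as a T-to-C conversion. A read with such a conversion (a T>C read) is therefore taken to come from RNA made during the pulse, and is called a new read. Some T>C reads also arise without alkylation, and the shares given are not corrected for them. For each gene name, the T>C reads were compared with the other reads, which are all reads minus the T>C reads, and the labelled share is the T>C reads as a percentage of all reads. Genes were ranked by the mean labelled share of the G2 libraries if each of these libraries held at least 100 of their reads. Of 19531 gene names in the files, 15343 had at least 1 read in G2, 9229 had at least 100 reads in each G2 library, and 9056 of these were ranked. The other 173 had over 5% T>C reads without alkylation and are described apart.

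The series holds 15 libraries in 5 groups of 3. The G2 libraries come from asynchronously growing U2OS cells that took up 4-thiouridine and EdU together for 45 minutes, were fixed with glyoxal and methanol, and were sorted by EdU signal and DNA content into the gate that the labels name G2 and the protocol G2/M. Their RNA was alkylated, and 500 ng went into 3′ end libraries. The Late_S, Early_S and G1 libraries are the same line, pulse and alkylation sorted into those gates. The No_alkylation libraries are the unalkylated controls of the same line, and the labels do not say which gate they come from. All values are thus from 1 cell line, and the labels do not say that replicates were separate cultures, so p-values measure only the spread between these libraries.

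The G2 libraries held 18203510, 18558531 and 21803972 reads in the annotated 3′ end regions, of which 1851845, 1812606 and 2274738 were T>C reads. The T>C reads made up 10.2%, 9.77% and 10.4% of reads in G2, against 1.00%, 1.00% and 1.03% in No_alkylation. The groups did not overlap, and the difference of 9.11 percentage points had an exact two-sided permutation p of 0.1, the smallest that 3 against 3 libraries allow. Conversions counted at T positions, divided by T>C reads, came to between 2.31 and 2.36 in G2 and between 0.822 and 0.836 in No_alkylation. A value under 1 shows that the files do not count these quantities by the same rule. Late_S had nearly the same T>C share as G2, with a difference of 0.0747 percentage points (exact permutation p = 0.7), while Early_S averaged 18.4% and G1 22.3%. Gate genes were checked: normalised read counts (CPM, reads of a gene scaled to the total of its library in regions) of CCNB1, CCNA2, PLK1, CDC20, AURKA and TOP2A were higher in G2 than in G1 and those of CDT1 and CCNE1 lower, with no overlap between libraries. In sorted bulk samples, fewer cells of a kind and less RNA per cell cannot be told apart. CCNB1, for instance, stood at 350 CPM in G2 and 131 CPM in G1. The 10 mesenchymal markers summed to between 7144 and 7308 CPM in G2, with COL1A2 and TWIST1 at 0, whereas the 10 blood cell markers summed to at most 3.23 CPM and 7 of them were at 0. The 8 epithelial markers summed to between 35.7 and 38.1 CPM with KRT19 at 0.

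A messenger RNA that is made and destroyed quickly is replaced within a short pulse, so that most of its copies are new, while a stable message is diluted only slowly by new copies. Messages of transcription factors, growth factor feedback regulators and cell cycle controllers are known for rapid decay, often directed by elements in their 3′ ends, and messages of ribosomal proteins, metabolic enzymes and the cytoskeleton for long life. A gene whose transcription rose shortly before the pulse also has mostly new copies, and with 1 pulse length these cases cannot be told apart from the labelled share.

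Promoters of 4 genes with high labelled shares are shown to place the short motifs whose frequency is given further on. Each is 250 bases before to 50 bases after the annotated start site, from RefSeq (GRCh38.p14), written 5′ to 3′ on the gene's strand. CTGF, a secreted matrix protein listed by RefSeq as CCN2, lies at chr6:131951323-131951622 on the minus strand, and DUSP1, a phosphatase that switches off MAP kinases, at chr5:172771146-172771445 on the minus strand. Capitals mark TATAAA, the core of the TATA box, which starts 32 bases before the start site in CTGF and 30 bases before it in DUSP1.
CTGF: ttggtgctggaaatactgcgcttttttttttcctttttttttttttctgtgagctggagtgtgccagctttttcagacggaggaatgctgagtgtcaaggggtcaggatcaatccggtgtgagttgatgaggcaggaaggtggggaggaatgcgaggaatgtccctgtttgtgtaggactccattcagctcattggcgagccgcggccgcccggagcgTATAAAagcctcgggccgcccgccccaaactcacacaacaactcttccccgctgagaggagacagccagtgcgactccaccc
DUSP1: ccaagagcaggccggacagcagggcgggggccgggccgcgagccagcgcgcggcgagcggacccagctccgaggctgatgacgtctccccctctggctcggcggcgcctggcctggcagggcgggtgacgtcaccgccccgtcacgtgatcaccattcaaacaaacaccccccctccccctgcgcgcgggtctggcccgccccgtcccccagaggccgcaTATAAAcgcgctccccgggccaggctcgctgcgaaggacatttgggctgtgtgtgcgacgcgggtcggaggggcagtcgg
CCNF, or cyclin F, lies at chr16:2429197-2429496 on the plus strand, and KIF18A, a kinesin of chromosome alignment, at chr11:28108107-28108406 on the minus strand. Capitals mark TTTGAA, the core of the cell cycle homology region (CHR) found in promoters of mitotic genes, 85 bases before the start site in CCNF and 10 bases before it in KIF18A.
CCNF: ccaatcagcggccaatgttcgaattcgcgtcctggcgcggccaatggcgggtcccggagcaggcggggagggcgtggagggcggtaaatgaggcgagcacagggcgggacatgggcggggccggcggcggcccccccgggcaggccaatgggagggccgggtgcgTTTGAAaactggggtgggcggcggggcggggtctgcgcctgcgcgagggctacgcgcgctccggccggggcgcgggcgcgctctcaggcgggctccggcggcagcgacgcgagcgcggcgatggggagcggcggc
KIF18A: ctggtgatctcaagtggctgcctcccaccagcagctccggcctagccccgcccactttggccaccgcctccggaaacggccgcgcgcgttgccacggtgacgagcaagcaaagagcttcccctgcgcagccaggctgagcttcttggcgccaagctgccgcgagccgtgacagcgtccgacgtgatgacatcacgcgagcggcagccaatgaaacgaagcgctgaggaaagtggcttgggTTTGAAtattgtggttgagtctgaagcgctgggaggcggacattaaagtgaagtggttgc
All these genes had high labelled shares in G2: the mean was 97.3% for DUSP1, 83.9% for CTGF, 48.1% for KIF18A and 39.4% for CCNF.

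Labelled shares in G2 ran from 0% to 97.3%, around a median of 9.38%. The middle of the ranking lay between 5.40% (25th percentile) and 16.8% (75th percentile), and 330 genes had more new than other reads, that is, a share over 50%. A share over 80% was reached by 58 genes, 353 genes stayed under 2%, and 18 had no T>C read at all. The fast decile, the 906 genes with the highest shares, began at 29.9% with TRIM68 as its last member and ZNF227 just below it. The slow decile, the 905 genes with the lowest shares, ended at 3.33%, with RHBDD1 just inside and RPLP2 just outside. Near the read threshold, the 15 genes with exactly 100 reads in their thinnest library had a median share of 10.8% (from 1.502% to 37.4%), and the 27 genes just outside it, with 99 reads, had a median of 8.09% (from 0.231% to 73.1%).

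**Figure D1:**
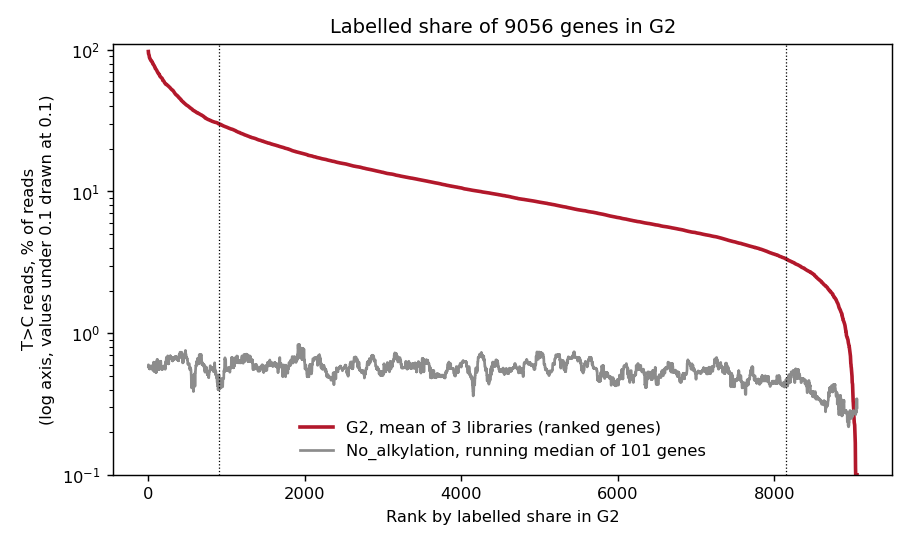
Labelled share of the 9056 ranked genes in G2 (mean of 3 libraries, percent of reads, log axis) against their rank, with the No_alkylation share of the same genes as a running median; the dotted lines mark the fast and slow deciles. Shares in G2 fall from 97.3% to 0% while the No_alkylation share stays near or below 1% along the ranking.

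The unalkylated background was low along the ranking, and genes that did not exceed it became more frequent towards the slow end. The median background was 0.599% in the fast decile and 0.371% in the slow decile. In edgeR's quasi-likelihood test over the G2 and No_alkylation libraries, 8805 of 10725 genes tested (82.1%) had a higher labelled share in G2 and 2 (0.0186%) a lower one (Benjamini-Hochberg adjusted p under 0.05). The lower ones were ADAM12, a membrane metalloproteinase, with 0.304% in G2 and 2.04% in No_alkylation, and a name that joins UQCR11 with a second gene. Genes entered this test only with at least 10 T>C reads summed over its libraries, and most T>C reads come from G2. The 82.1% is therefore raised by the filter: without it, 8862 of 16128 genes were higher in G2. All 906 genes of the fast decile exceeded the background, and so did 327 of 788 tested genes of the slow decile. Counted from the fast end, 862 of 905 tested genes exceeded it in decile 5 and 685 of 904 in decile 9. The deciles were drawn from the same G2 reads, and genes over 5% T>C reads in No_alkylation were already left out. These counts thus only describe the deciles. For the tested slow genes that did not pass, new RNA of a 45 minute pulse was not detectable above background at this depth, and the slow genes outside the 788 were not tested.

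New and other reads came from different parts of the ranking. The fast decile held 17.2% of all T>C reads and 2.11% of all other reads in G2, whereas the slow decile held 1.80% of T>C reads and 7.55% of other reads. The largest share of other reads, 19.6%, fell in decile 9 of the ranking, counted from the fast end, where many abundant housekeeping genes lie. Median total RNA was low at both ends of the ranking: the median gene had 23.5 CPM in the fast decile, 61.7 CPM in decile 8 and 23.8 CPM in the slow decile. Shares of thinly covered genes also scatter more between libraries, as given further on, and scatter moves genes to both ends. Covered T positions per read set how often a new read can show a conversion. Their median was 19.9 in the fast decile and 17.8 in the slow decile, and it was lower in some gene lists given further on. The conversion rate, which counts converted over covered T positions, had a median of 5.56% in the fast decile and 0.236% in the slow decile.

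**Figure D2:**
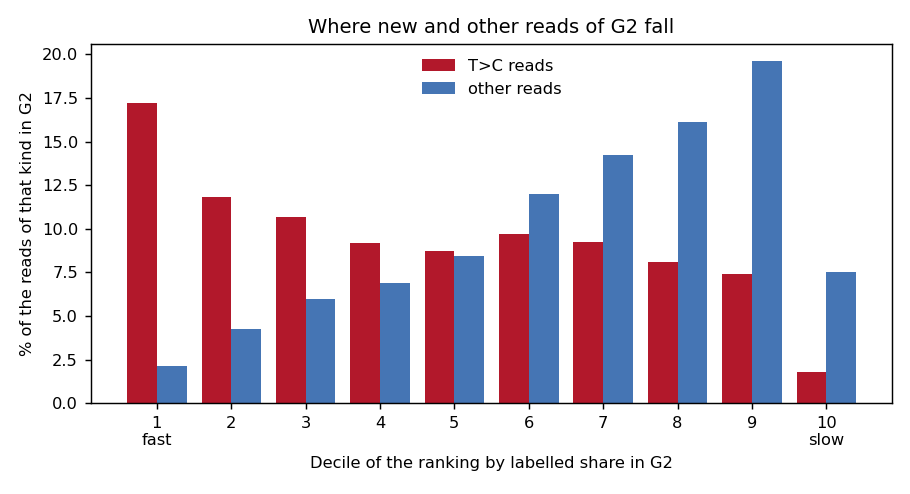
Percent of all T>C reads (red) and of all other reads (blue) in G2 that fall in each decile of the ranking, summed over 3 libraries; bars start at 0. T>C reads are most frequent in decile 1 (17.2%), other reads in decile 9 (19.6%).

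The most abundant messages of G2 differed between the pools of new and other RNA, as seen in the genes that gave most reads of each kind, which were chosen after their values were seen. The 884 genes with most T>C reads supplied 50% of the new reads, and the 583 genes with most other reads supplied 50% of the other reads. EEF1A1, the elongation factor that brings transfer RNA to the ribosome, gave 0.503 ± 0.0248% of T>C reads and 0.710 ± 0.0541% of other reads (SD, n = 3), the most T>C reads of any ranked gene, though 99.3% of its reads were multimapped. HSP90AA1, a chaperone, followed with 0.492 ± 0.0151% of T>C reads and 0.318 ± 0.00388% of other reads. ID1, an inhibitor of differentiation factors, came next among ranked genes with 0.442 ± 0.0116% of T>C reads, while it made up only 0.00876 ± 0.000471% of other reads. GAPDH, a glycolytic enzyme, went the other way, with 0.282 ± 0.0222% of T>C reads and 0.819 ± 0.0161% of other reads. RPL41, a ribosomal protein whose reads were 98.7% multimapped, led the other reads with 1.27 ± 0.0640% and gave 0.406 ± 0.0191% of T>C reads.

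To test single genes, T>C and other reads of each G2 library were fitted as paired columns with edgeR's quasi-likelihood test. A log2 value gives the ratio of new to other reads relative to the bulk, which is the scaled library total of each kind of read. The bulk is not the median gene, which lay at −0.28 among all tested genes and at −0.22 among ranked genes. Of 11885 genes tested, 2371 (19.9%) lay above the bulk and 2162 (18.2%) below it at an adjusted p under 0.05. Limma on log ratios, centred on the median gene, placed 2262 above and 689 below. Several genes given further on lay below the bulk in edgeR but did not pass in limma. These included GAPDH, RPLP0, H2AFZ, HSPB1, CCT2, FDPS, TP53I3, CENPH, SPC25, ACTB, VIM, POLA1 and COL3A1 (limma adjusted p from 0.0507 to 0.434). POLA1 also lost its call without G2 replicate 1 (edgeR adjusted p = 0.101). COL3A1 lost its call without G2 replicate 1 (edgeR adjusted p = 0.0679) and without G2 replicate 2 (edgeR adjusted p = 0.0923). Of genes above the bulk in edgeR, RPL37 and SRF did not pass in limma (adjusted p = 0.101 and 0.0522). Among the ranked genes alone, 1972 (21.8%) lay above and 2093 (23.1%) below, and these shares are the yardstick for the gene groups that follow. The test uses the same reads as the ranking, so for the deciles it only describes how tightly the libraries agree: 888 of 906 fast genes lay above and 699 of 905 slow genes below.

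The 15 genes with the highest labelled shares included a signalling phosphatase, a Mediator subunit, an inhibitor of the anaphase-promoting complex and several zinc finger genes. DUSP1, whose counted 3′ region lies at chr5:172768090-172768761 (hg38), had a labelled share of 96.4%, 99.3% and 96.2% in the G2 libraries, against 0.0963% in the pooled No_alkylation libraries. All 3 G2 libraries were thus almost wholly new for this gene, and its log2 ratio against the bulk was 8.29 ± 0.38 (SE, edgeR adjusted p = 3.94e-13). MED26, a Mediator subunit of transcription elongation, followed with 93.8%, 96.7% and 92.9% T>C reads in G2. BDNF, a neurotrophin, had 97.2%, 95.8% and 90%, and SGK1, a serum-induced kinase, had 96.9%, 92.3% and 91.7%. FBXO5, known as EMI1, the inhibitor that restrains the anaphase-promoting complex until mitosis, had 93.9%, 90.1% and 94.2% new reads in G2 and 2.07% in No_alkylation (log2 6.85 ± 0.30, edgeR adjusted p = 1.85e-13). It had the highest share of the 37 G2/M regulators described further on. SMAD7, which blocks TGF-beta receptors, had 94.1%, 96.0% and 87.6%. Among the other genes at the top were ZNF503, ZNF217, ZNF12 and ZNF695, which are zinc finger genes, TOPORS, MSL2 and YOD1, enzymes of the ubiquitin system, ARRDC3, an arrestin-like adaptor, and AMOTL2, a junction protein.

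High shares were also found in abundant messages, where the libraries lay closest together. Among the 3300 genes with at least 1000 reads in each G2 library, the median share was 8.16% and the highest 89.5%, for AMOTL2. ID1, at 526 CPM, had 84.5%, 85.5% and 85.2% new reads in G2 (log2 5.66 ± 0.09, edgeR adjusted p = 1.12e-20). IER3, an early response gene, had 85.7%, 83.9% and 86.5%, and JUN, the AP-1 subunit at chr1:58780788-58782074 (hg38), had 84.9%, 82.1% and 85.4% (log2 5.56 ± 0.16, edgeR adjusted p = 2.73e-16). For these genes 3 libraries gave the same picture within a few percentage points. CTGF stood at 83.8%, 83.8% and 84.2%. MCL1, a short-lived survival protein of the BCL2 family, had 80.5%, 83.6% and 82.8%, and ZFP36L1, a protein that itself promotes decay of AU-rich messages, had 80.8%, 82.8% and 84.2%.

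AP-1 and immediate early regulators, transcription factors and effectors that respond to growth signals within minutes, had the highest median share of all lists, 65.1% against 9.38% for all ranked genes. Of 35 listed genes 24 were ranked and 11 had under 100 reads in a G2 library, among them FOS, ATF3 and ZFP36. Of the 24, 19 were in the fast decile and none in the slow decile, and 22 lay above the bulk and none below. KLF10, a TGF-beta induced factor, led them with 88.2%, 83.6% and 86.8% new reads in G2. MYC, the growth factor response regulator, was lower with 29.6%, 29.3% and 38.9% (log2 2.09 ± 0.42, edgeR adjusted p = 0.000392). EGR1, a zinc finger factor, scattered widely in G2 with 43.5%, 11.01% and 27.5% and did not pass the test (log2 1.57, edgeR adjusted p = 0.0732), and neither did NR4A1, a nuclear receptor with 20%, 12.2% and 13.1%. SRF, the serum response factor that drives many of these genes, stood at 16.8%, 13.3% and 16.2%.

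Feedback regulators of MAP kinase, TGF-beta and Notch signalling had a median share of 42.1%. Of 22 ranked members 15 were in the fast decile, 20 lay above the bulk and none below. Besides DUSP1, SMAD7 and ARRDC3, NFKBIA, the inhibitor of NF-kappa-B, was high with 78.8%, 92.7% and 83.9%. TNFAIP3, another NF-kappa-B inhibitor, had the lowest share of the list, 11.5%, and did not differ detectably from the bulk (log2 0.06).

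Zinc finger factors and p53 targets came next. The 45 ranked C2H2 zinc finger factors of the list had a median of 32.0%, with 24 in the fast decile, 30 above the bulk and 1 below. All ranked names that start with ZNF and a number, a set chosen after the values were seen, numbered 158, had a median of 25.1%, and put 66 genes (41.8%) in the fast and 4 in the slow decile. The 21 ranked p53 targets had a median of 25.4% and split widely: 14 lay above the bulk and 1 below. PLK2, a kinase induced by p53, had 81.6%, 81.0% and 87.1% new reads in G2, AEN, an apoptosis nuclease, had 52.3%, 56.8% and 60.2%, and CDKN1A, the CDK inhibitor p21, had 42.6%, 35.1% and 45.5%. MDM2, the ubiquitin ligase of p53, stood lower at 20.9%, 25.8% and 23.6%. TP53I3, an oxidoreductase, was the list's only gene below the bulk with 3.95%, 1.10% and 5.23% (edgeR adjusted p = 0.00482).

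**Figure D3:**
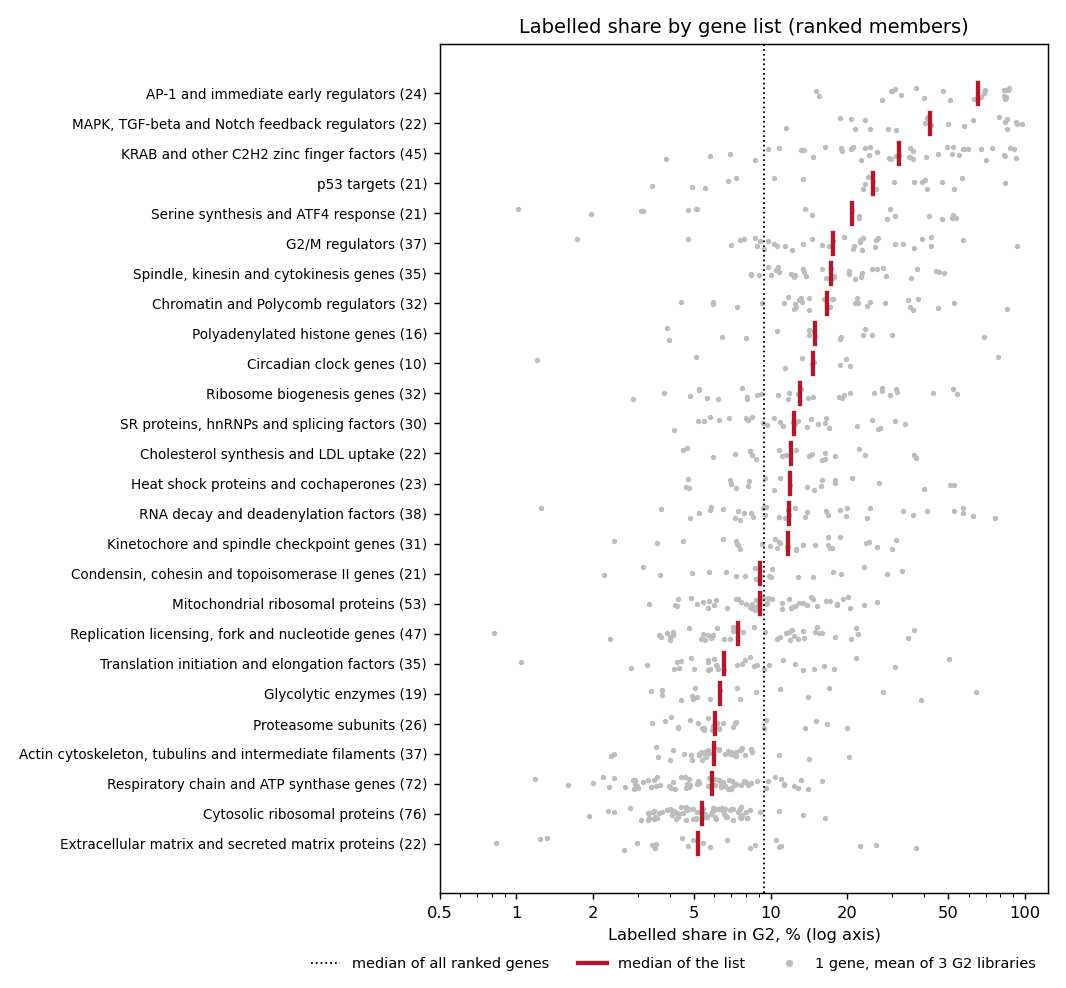
Labelled share in G2 (percent, log axis) of the ranked members of each gene list, one grey point per gene (mean of 3 libraries), with the list median as a red bar and the median of all ranked genes (9.38%) as a dotted line; the number of ranked members is in brackets. Immediate early, feedback and zinc finger genes lie to the right, ribosomal protein, respiratory chain, cytoskeleton and matrix genes to the left.

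Mitotic genes, the messages that accumulate towards mitosis and define G2, had shares above the median but spread from nearly all new to nearly all old. The 37 G2/M regulators had a median of 17.6%: 20 lay above the bulk, 2 below and 15 did not pass the test, with 8 in the fast and 1 in the slow decile. After FBXO5 the highest were CDC25A, a phosphatase that activates CDKs, with 44.3%, 75.3% and 51.5%, and WEE1, the kinase that opposes it, with 33.2%, 35.0% and 59.5%. The values of both genes scattered more between libraries than those of CKS2, a CDK subunit, at 41.6%, 41.7% and 44.2%, and of CCNF at 39.4%, 38.1% and 40.6% (log2 2.53 ± 0.13, edgeR adjusted p = 1.24e-12).

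The core mitotic cyclins and kinases lay lower. CCNB1, cyclin B1, counted mainly at chr5:69177524-69178245 (hg38), had 33.6%, 28.1% and 30.7% new reads in G2 and 0.538% in No_alkylation (log2 1.98 ± 0.11, edgeR adjusted p = 1.28e-11). CDK1, its kinase, had 26.0%, 20.4% and 33.0%, AURKA, the spindle pole kinase, had 19.8%, 26.6% and 22.6%, and CCNA2, cyclin A2, had 20.7%, 24.6% and 21.9%. CDK1, AURKA and CCNA2 overlapped each other, and CDK1 also overlapped CCNB1. PLK1, a kinase of mitotic entry, followed with 16.6%, 17.5% and 18.8% (log2 0.92 ± 0.14). CDC20, which switches on the ubiquitin ligase of anaphase, had 9.74%, 9.79% and 11.3% and did not differ detectably from the bulk (log2 0.02, edgeR adjusted p = 0.897), with 23.8% of its reads multimapped. Cyclin B2 (CCNB2), with 6.86%, 7.35% and 11.8%, and FOXM1, a transcription factor of mitotic genes, with 8.49%, 9.26% and 11.5%, did not pass the test either.

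MYBL2, or B-MYB, another transcription factor of the mitotic programme, stood at the opposite end from FBXO5. It was abundant, at 724 CPM, and its share was 1.68%, 1.78% and 1.72% in the G2 libraries, against 0.670% in pooled No_alkylation (log2 −2.68 ± 0.13, edgeR adjusted p = 1.53e-12). Its region lies at chr20:43716088-43716496 (hg38) and held 42342 reads in G2, of which 731 were T>C reads. CKS1B, which belongs with CKS2 to a pair of CDK subunits, was also low with 7.01%, 5.96% and 8.002%, but 67.4% of its reads were multimapped.

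Spindle, kinesin and cytokinesis genes had a median of 17.3%, and of 35 ranked members 19 lay above the bulk and 1 below. KIF18A had 53.9%, 34.7% and 55.7% new reads in G2, and ARL6IP1, an endoplasmic reticulum protein often coexpressed with mitotic genes, had 46.6%, 44.5% and 46.9%. KPNA2, the importin that carries spindle factors, was the most abundant of those described at 1048 CPM, with 26.5%, 27.5% and 29.2%, and 30.2% of its reads were multimapped. STMN1, a microtubule destabiliser, was the single member below the bulk at 8.31%, 8.30% and 8.52%. Its log2 was −0.30 (edgeR adjusted p = 0.0170), close to the −0.22 of the median ranked gene. The call of STMN1 was lost without G2 replicate 1 (edgeR adjusted p = 0.0896), without G2 replicate 3 (edgeR adjusted p = 0.0961) and with limma (adjusted p = 0.698). KIF11, the spindle bipolarity kinesin, had 12.7%, 5.09% and 7.18% and did not pass the test. Among the 31 kinetochore and spindle checkpoint genes, with a median of 11.7%, 9 lay above and 4 below. CENPF, a large kinetochore protein, had 19.6%, 18.1% and 18.2%, and CENPA, the centromere histone, 37.5%, 22.4% and 30.1%. CENPH and SPC25, structural subunits, were low, with 1.91%, 3.52% and 1.86% for CENPH and 1.70%, 4.57% and 4.41% for SPC25. Condensin, cohesin and topoisomerase II genes had a median of 9.08% (5 of 21 above, 4 below), with CDCA5, the cohesin protector sororin, highest at 27.1%, 41.6% and 30.1% and the condensin subunit NCAPH2 lowest at 2.14%, 2.86% and 1.66%. TOP2A, topoisomerase II alpha, lay at the bulk with 9.02%, 6.99% and 11.2%.

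Promoters of the mitotic lists often held TTTGAA and CCAAT, while TATAAA was in 1 of 30 G2/M and 2 of 33 spindle promoters. TTTGAA, searched on both strands of the 300 base window, was present in 69.7% of 33 matched spindle promoters, 15 of 30 matched G2/M promoters, 11.7% of 750 matched fast decile promoters and 9.24% of 7302 matched promoters of all ranked genes. CCAAT was present in 78.8% of spindle, 70.0% of G2/M, 38.5% of fast decile and 37.0% of all promoters. TATAAA was in 7.87% of fast decile promoters and 4.92% of all. TGACGTCA, the full cyclic AMP element, was in 16.7% of the 18 matched feedback regulator promoters and 3.74% of all. A match is a description of letters in a window and not a binding site. For the slow decile 693 of 905 genes and for the immediate early list 16 of 24 had a promoter in the reference table, which is under 80% of their members, so that check is void.

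Replication genes, whose proteins copy DNA in S phase, lay below the mitotic genes. The 47 ranked members had a median of 7.43%, with 8 above the bulk and 19 below. E2F2, a transcription factor of the G1/S switch, with 41.3%, 31.6% and 37.0%, and ORC6, an origin recognition subunit, with 35.3%, 32.2% and 36.3%, were the fast members. TYMS, the enzyme that makes thymidylate, had 3.89%, 3.72% and 4.76% at 828 CPM, and PRIM1, the primase, 1.47%, 2.63% and 2.92%. Both lay below the bulk (log2 −1.40 for TYMS and −2.28 for PRIM1). POLA1, the polymerase alpha catalytic subunit, had 0%, 0% and 2.44%. CDC6, the licensing factor, scattered with 16.96%, 3.30% and 8.11% and did not pass the test. Histone genes of the polyadenylated list had a median of 14.9%, with 9 of 16 above and 4 below. H3F3B, a replication-independent histone H3, had 14.4%, 13.0% and 15.1%, while H2AFZ, the H2A.Z variant, had 6.26%, 6.59% and 6.42% (edgeR adjusted p = 2.83e-07).

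**Figure D4:**
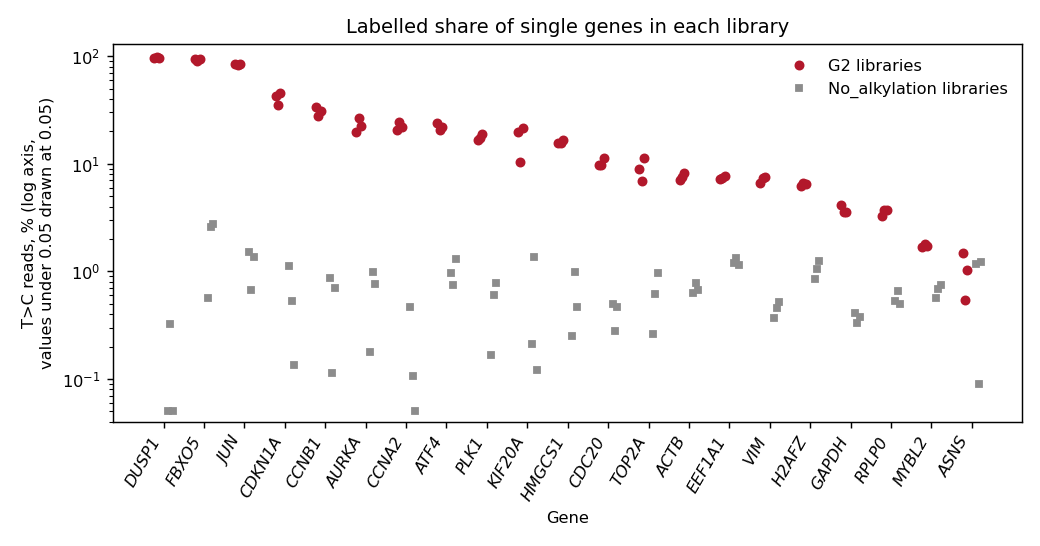
Labelled share (percent of reads, log axis) of single genes in each of 3 G2 libraries (red circles) and 3 No_alkylation libraries (grey squares). DUSP1, FBXO5 and JUN lie above 80% in G2, and ASNS is the only gene shown whose G2 and No_alkylation values overlap.

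Housekeeping genes lay towards the slow end of the ranking. Of 76 ranked cytosolic ribosomal protein genes, 72 lay below the bulk and 2 above, with a median share of 5.36%. RPLP0, a stalk protein, had 3.27%, 3.72% and 3.73% new reads in G2, against 0.559% in No_alkylation (log2 −1.60 ± 0.07, edgeR adjusted p = 2.65e-13). RPL36AL, with 17.3%, 15.9% and 15.9%, and RPL37, with 14.5%, 12.5% and 13.2%, were the members above. Ribosomal protein genes have many processed copies in the genome, and 42 of the 76 had over 20% multimapped reads. The 34 with fewer had a median of 5.19%, with 32 below the bulk. No member was in the fast decile, and 8 were in the slow decile, since most lay in the deciles just above it. Reads of this list covered a median of 13.3 T positions, against 19.3 for all ranked genes, so a new read had fewer places to show a conversion. By the conversion rate, the list median was 0.736%, against 1.13% for all ranked genes.

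Other housekeeping groups had similar levels. The 72 respiratory chain and ATP synthase genes had a median of 5.87% with 51 below the bulk and 2 above, and 15 were in the slow decile, among them NDUFB8, a complex I subunit at 0.749%, 1.52% and 2.53%. The 2 above were UQCRFS1, the Rieske protein, with 55.9% multimapped reads, and CYCS, cytochrome c, with 19.6%. CYCS lost its call without G2 replicate 2 (edgeR adjusted p = 0.0852) and with limma (adjusted p = 0.124). Of 26 proteasome subunits, 19 lay below and 4 above (median 6.04%). Covered T positions per read had a median of 16.1 in the respiratory chain list and 16.7 in the proteasome list. Of 35 translation factors, 20 lay below and 7 above (median 6.54%). EIF4A2, an RNA helicase of translation initiation, was the exception at the top with 56.5%, 45.1% and 48.5% new reads in G2, against 6.54% for the list median.

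The cytoskeleton list had a median of 5.98%, with 31 of 37 below the bulk and 1 above. ACTB, beta actin, had 7.08%, 7.55% and 8.24%, with 75.7% of its reads multimapped, and VIM, vimentin, had 6.60%, 7.42% and 7.49%. Among the tubulins, TUBB had 5.05%, 4.89% and 5.67%, with 21.7% of its reads multimapped. TUBB4B, the single member above, had 20.1%, 20.2% and 20.4%, so these closely related genes did not overlap. The smooth muscle type genes TAGLN, at 2.83%, 1.61% and 2.61%, and MYL9, at 2.97%, 1.94% and 2.32%, were the lowest. In the extracellular matrix list (median 5.17%, 13 of 22 below, 2 above), THBS1, a matricellular protein, was new in 36.1%, 35.5% and 40.0% of reads, while the fibrillar collagen COL3A1 was at 0%, 0% and 2.50%.

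Several pathways held fast and slow messages side by side. Among 19 glycolytic genes (median 6.32%, 11 below, 3 above), GAPDH had 4.13%, 3.53% and 3.56% (log2 −1.54 ± 0.06, edgeR adjusted p = 1.18e-14), whereas SLC2A3, a glucose transporter, had 63.6%, 48.7% and 79.4%, and PFKFB3, the regulator of glycolytic flux, 51.3%, 32.0% and 33.5%. The serine synthesis and ATF4 response list had members at both ends, with 6 in the fast and 5 in the slow decile, 13 above and 7 below the bulk. Its fast members included XBP1, a factor of the unfolded protein response, with 52.9%, 45.1% and 62.7%, and CHAC1, a glutathione-degrading enzyme, with 50.3%, 53.8% and 51.7%. Among its slow members PHGDH, the first enzyme of serine synthesis, had 1.84%, 1.90% and 2.15%. ASNS, asparagine synthetase, had 1.47%, 0.547% and 1.02% in G2, against 0.832% in pooled No_alkylation, so its new RNA was at background. ATF4 itself, the factor that drives the list, had 23.7%, 20.7% and 22.1%.

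Heat shock genes also ranged from fast to slow. DNAJB1, a stress-induced cochaperone, had 53.3%, 55.1% and 48.7% new reads, and the near-identical copies HSPA1A (43.2%, 35.7% and 40.9%) and HSPA1B, which may share reads, were also high. HSPB1, a small heat shock protein, had 4.87%, 4.68% and 4.40%, and CCT2, a subunit of the actin and tubulin chaperonin, 5.91%, 4.01% and 4.23%. Of the 23 members 10 lay above the bulk and 6 below, and 3 were in the fast decile. In cholesterol synthesis and uptake (median 12.02%, 6 of 22 above, 1 below), HMGCS1, an early enzyme, had 15.6%, 15.6% and 16.6%, and FDPS, a later one, 3.94%, 6.53% and 3.04%.

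Genes that make or destroy RNA and ribosomes were spread over the whole range. RNA decay and deadenylation factors had a median of 11.8%, with 8 of 38 in the fast decile and 13 above against 4 below the bulk. TOB1, which recruits deadenylases, had 76.2%, 69.7% and 81.7%, and DCP1A, a decapping cofactor, 64.1%, 63.8% and 59.9%, whereas SMG5 of nonsense-mediated decay had 0.640%, 1.11% and 2.004%. Ribosome biogenesis genes (median 13.0%, 15 of 32 above, 7 below) included RRS1, with 52.0%, 55.3% and 49.3%, and RRP9, a U3 particle protein, with 2.90%, 1.77% and 3.95%. Splicing factors had a median of 12.4% (12 of 30 above, 9 below), chromatin and Polycomb regulators 16.7% (14 of 32 above, 3 below), mitochondrial ribosomal proteins 9.07% (11 of 53 above, 9 below) and circadian clock genes 14.7% (2 of 10 above, 1 below). BRD2, an acetyl-histone reader, was in the fast decile with 49.6%, 50.9% and 56.7%, and NFIL3, a clock output repressor, led the clock genes with 90.8%, 53.4% and 91.2%.

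At the bottom of the ranking, 18 names had no T>C read in any G2 library. Their reads in G2 ranged from 404 to 1142, so they are thin genes. STRADB, a pseudokinase, had 0 of 1142 reads, which allows a share of up to 0.263%, and 43.9% of its reads were multimapped. ARG2, the mitochondrial arginase, and the epithelial genes EPCAM and KRT7 were among them. None of these values separates slow renewal from low transcription during the pulse.

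The 173 genes over 5% T>C reads in No_alkylation were kept out of the ranking because their T>C reads need not be new RNA. They had a median of 21.0% T>C reads in G2 and 8.27% in No_alkylation. Only 59 exceeded the background in the edgeR test, 114 did not, and in 17 the background was above the G2 share. They held 4.04% of the T>C reads in G2 and 28.1% of those in No_alkylation. UBXN6 had 69.5%, 72.4% and 68.7% T>C reads in G2, against 69.3%, 71.8% and 61.8% in No_alkylation (edgeR adjusted p = 0.800). RPS29, a ribosomal protein, had 24.0%, 23.1% and 24.4% in G2 and 22.8% in pooled No_alkylation, and it gave more T>C reads in G2 than any other gene, 0.816% of them. Its conversion rate, in contrast, was 0.613% in G2 and 0.0274% in No_alkylation. EXOC8, an exocyst subunit, shows that a gene in this set can carry label, with 88.3% in G2 and 15.2% in No_alkylation.

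The labelled share of a single gene varied least between libraries where its reads were many. Between G2 libraries, the median SD was 6.28 percentage points in 729 genes with a mean of 100 to 200 reads per library and 1.32 points in 2030 genes with at least 2000 reads. These SDs were 2.73 to 3.38 times the binomial ones from the least to the most deeply covered genes. The binomial SD treats reads as independent molecules and leaves out the spread between libraries. Decile membership also varied with depth: the fast and slow deciles held 117 and 126 of the 729 genes, against 61 and 119 of the 2030. Across the 9056 genes, Spearman's rho between pairs of G2 libraries was 0.706, 0.748 and 0.723, and between the share and the multimapped percentage −0.0195. With the number of reads it was −0.113, with covered T positions per read 0.146, and with the span of the gene −0.0573. These are descriptions across genes, which are not independent replicates.

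The order of fast and slow messages in G2 was largely shared with the other phases, and most with Late_S. The labelled shares of the 9056 genes in G2 had a Spearman's rho of 0.873 with Late_S, 0.854 with Early_S and 0.831 with G1, all from libraries of the same series. The genes of the fast decile had a median share of 42.4% in G2, 45.3% in Late_S, 72.7% in Early_S and 69.7% in G1, while all ranked genes had medians of 9.38% in G2, 9.69% in Late_S, 19.6% in Early_S and 25.9% in G1. Since the whole libraries differ in T>C share, phases were compared only relative to the bulk, as the difference of 2 log2 ratios in 1 edgeR fit over the 12 alkylated libraries. Of 11238 genes tested, 2 (0.0178%) were higher in G2 than in Late_S and 3 (0.0267%) lower, with 931 at an unadjusted p under 0.05. DESeq2 called 37 higher and 52 lower, and edgeR without a filter on low counts 12 and 18. Against Early_S, 321 (2.86%) were higher and 913 (8.12%) lower, and against G1 482 (4.29%) were higher and 524 (4.66%) lower. Scaled by library totals, the split was 227 higher and 1255 lower against Early_S and 329 higher and 881 lower against G1. The median gene shifted by −0.06 against Late_S, −0.21 against Early_S and −0.21 against G1 on the log2 scale.

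The 5 genes that edgeR called against Late_S were abundant messages, and the least covered of them, HIST1H4C, had 9610 reads in G2. DUT, the enzyme that removes dUTP, had 8.31%, 5.19% and 6.12% new reads in G2, against 2.62%, 2.93% and 2.26% in Late_S, with no overlap (log2 difference 1.404, edgeR adjusted p = 0.00343). HIST1H4C, a replication histone H4 gene, had 54.1%, 52.7% and 50% in G2, against 39.4%, 35.1% and 36.8% in Late_S (0.93, edgeR adjusted p = 0.0245). KRTAP2-3, a keratin-associated protein, had 37.4%, 29.5% and 30.2% in G2, against 46.4%, 47.0% and 45.6% in Late_S (−0.82). ANKRD1, a target of YAP, had 67.1%, 66.8% and 68.0% in G2, against 76.8%, 77.2% and 76.4% in Late_S (−0.65), and MT2A, a metallothionein, 3.53%, 3.44% and 3.79% in G2, against 4.52%, 4.58% and 4.89% in Late_S (−0.36). HIST1H4C, ANKRD1 and MT2A lost their call in some of the alternative settings, with adjusted p of up to 0.145, 0.0632 and 0.139.

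Against G1, the gene groups moved in different directions relative to the bulk. Of all 9048 ranked genes tested, 448 were higher and 496 lower in G2 than in G1. Of the 76 ribosomal protein genes, 67 were higher in G2 than in G1 and none lower, and of the 34 with few multimapped reads 31 were higher. RPLP0, which is not among the 34 as 34.2% of its reads were multimapped, had 3.27%, 3.72% and 3.73% in G2, against 7.42%, 6.88% and 6.74% in G1. This fall was smaller than that of the bulk, so the difference of RPLP0 relative to the bulk was positive (0.53, edgeR adjusted p = 0.000216). Against Early_S, 69 ribosomal protein genes were higher and none lower, and against Late_S none passed the test. Of 47 replication genes, 15 were lower in G2 than in G1 and none higher, while 1 was higher and none lower than in Late_S. TYMS had a mean of 4.12% in G2 and 23.4% in G1 (−1.28), and CDC6 had 16.96%, 3.30% and 8.11% in G2, against 43.3%, 44.1% and 54.7% in G1 (−1.78, edgeR adjusted p = 0.0248).

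Mitotic genes did not move together between G2 and G1. CCNB1 had 33.6%, 28.1% and 30.7% new reads in G2, against 28.6%, 29.6% and 34.1% in G1, so that its share overlapped while the bulk share was far lower in G2 (1.56 relative to the bulk, edgeR adjusted p = 5.43e-07). CCNA2 had 20.7%, 24.6% and 21.9% in G2, against 70.1%, 65.8% and 67.0% in G1 (−1.30, edgeR adjusted p = 0.000324), though its level was 149 CPM in G2, against 49.4 CPM in G1. TOP2A went the same way as CCNA2, with 9.02%, 6.99% and 11.2% in G2, against 50.3%, 40.6% and 38.7% in G1 (−1.40). KIF20A, a cytokinesis kinesin, went the other way with 19.6%, 10.3% and 21.7% in G2, against 9.53%, 6.32% and 7.13% in G1 (2.84). In all, 6 of 37 G2/M regulators were higher and 4 lower in G2 than in G1, and 1 was higher and 11 lower than in Early_S. Of all 9048 ranked genes tested, 448 were higher and 496 lower than in G1, and 297 higher and 871 lower than in Early_S. Of 35 spindle genes, 5 were higher and none lower than in G1, and none were higher and 10 lower than in Early_S. No member of these lists passed the test against Late_S. With library totals as the scale, 7 G2/M regulators and 5 spindle genes were lower than in G1, as were 881 of all 11238 genes tested.

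**Figure D5:**
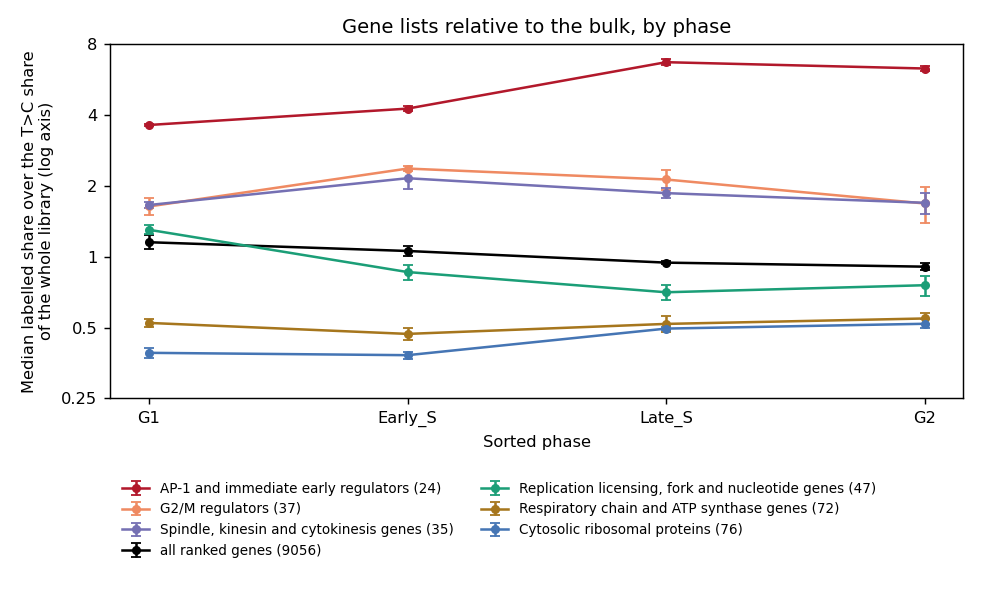
Median labelled share of each gene list over the T>C share of the whole library (log axis) in the 4 sorted phases; points are means of 3 libraries and bars their SD. Immediate early genes stand at 6.29 in G2 and 3.62 in G1, ribosomal protein genes at 0.519 in G2 and 0.390 in G1, and replication genes at 0.756 in G2 and 1.30 in G1. Late_S is close to G2, with 6.70 for immediate early, 0.495 for ribosomal protein and 0.706 for replication genes. A share cannot exceed 100%, so the highest possible ratio is lower in phases with a higher library share, such as G1.

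The tubulin genes show how far a single message can shift. TUBB, the most abundant beta tubulin, had a mean of 5.20% in G2 and 30.7% in G1 (log2 difference −1.46 relative to the bulk, edgeR adjusted p = 1.98e-12), whereas TUBB4B had 20.3% in G2 and 34.2% in G1 (0.53, edgeR adjusted p = 0.00293). The largest differences belonged to thinly covered genes. CEP70, a centrosome protein, had 39.3%, 21.7% and 30.0% in G2, against 0.855%, 17.1% and 0% in G1 (5.60). RAB38, a small GTPase, had 0%, 5.20% and 0% in G2, against 51.5%, 66.7% and 75.6% in G1 (−6.13), a call lost without G2 replicate 1 (edgeR adjusted p = 0.0517) and without G1 replicate 3 (edgeR adjusted p = 0.0569). SAPCD2, a spindle orientation protein with 23.7%, 26.5% and 31.3% in G2, against 6.54%, 4.87% and 17.2% in G1 (3.52), and TNFAIP8L1, with 26.6%, 20.6% and 33.6% in G2, against 10.4%, 4.42% and 13.0% in G1 (3.51), were better covered and kept their calls in the 19 alternative settings.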

How the data were processed

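The authors counted reads with slamdunk 0.2.4 on hg38 over merged regions of Ensembl release 90, per the file headers and the submitters' processing notes. The deposited tables hold read counts and T>C read counts per 3′ end region, which are raw counts, and conversion rates, which the authors deposited as a fraction of covered T positions. The deposited CPM column, which the authors scaled to all reads of a library, was used only for the part of a library in regions (58.9% to 69.7%), and CPM in the text were recomputed from counts. How many conversions a T>C read had to hold, and which variants were masked, is not given in those sources. All regions of a name were added up.

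The labelled share was computed per library and averaged. Counts were tested with edgeR 4.0.16 (R 4.3.3) quasi-likelihood fits at a Benjamini-Hochberg adjusted p of 0.05. Genes needed at least 10 reads in each library compared. Only the test against No_alkylation also asked for at least 10 T>C reads, summed over its libraries. The fits were also run on simulated data. Limma 3.58.1 on log ratios (pseudocount 0.5) and DESeq2 1.42.0 were alternatives. Libraries held 16096695 to 21803972 reads in regions, and the files record no molecular identifiers, so intervals and limits from 3 counts cover counting error only.

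The members and gene lists were chosen with earlier results of these data known. Genes were named if they were among the 15 highest or 15 lowest of the ranking, the 2 highest or 2 lowest of a list, in a set fixed by name, or among up to 5 called genes each way with the largest difference from another phase and no overlap. Outside this rule, CTGF, CCNF, ADAM12, HSP90AA1, ID1, RPL41, MCL1, ZFP36L1, NFKBIA, WEE1, CKS2, CDK1, CCNB2, FOXM1, CKS1B, KPNA2, TYMS, H3F3B, TUBB, HSPA1A, UBXN6, RPS29 and EXOC8 were chosen after their values were seen, apart from genes at thresholds and marker genes. Some genes that met the rule are not reported here.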

Additional observations from a re-analysis of the deposited data

Results flagged for a closer look

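The ratio of new to other reads, taken relative to the bulk, differed between G2 and another phase for the following genes by the edgeR test of the difference itself. Against Late_S, the log2 difference was 1.404 for DUT, 0.93 for HIST1H4C, −0.82 for KRTAP2-3, −0.65 for ANKRD1 and −0.36 for MT2A.

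Against Early_S, the transporter SLC35D2 (3.86), the SNARE STX8 (3.44), the kinase GALK1 (2.77), ARHGAP10 (2.71) and the helicase ERCC2 (2.70) were higher in G2 on the log2 scale. KRT7, ARG2 and STRADB had no T>C read in G2. With a floor of 3 T>C reads summed over G2, KRT7 was at least 7.55-fold lower, ARG2 at least 12.9-fold lower and STRADB at least 11.1-fold lower. BCL2A1 had 3 T>C reads of 635 in G2 and 260 of 367 in Early_S, a ratio relative to the bulk of 0.0121 (95% counting interval 0.00248 to 0.0358). For MAN1A1, with 1 of 637 in G2 and 194 of 681 in Early_S, the ratio was 0.0100 (0.000252 to 0.0565). GALK1 lost its call in 11 of 19 alternative settings, ERCC2 in 9, SLC35D2 in 6, ARHGAP10 in 4 and KRT7 in 12 of 18.

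Against G1, log2 differences above 0 were found for CEP70 (5.60), CHMP2A (4.22), SAPCD2 (3.52), TNFAIP8L1 (3.51), MED26 (3.40), KIF20A (2.84), DUSP1 (2.16), CCNB1 (1.56), JUN (1.35), IER2 (0.89), ACTB (0.89), CDC20 (0.81), GAPDH (0.58), RPLP0 (0.53), H2AFZ (0.48) and VIM (0.44). JUN shows what such a value holds: its share was 84.9%, 82.1% and 85.4% in G2, against 85.8%, 86.6% and 85.5% in G1, so it stayed nearly level where the bulk was lower in G2. Differences below 0 were found for RAB38 (−6.13), CDC6 (−1.78), EGR1 (−1.61), TOP2A (−1.40), CCNA2 (−1.30), CCNE1 (−1.25), HMGCS1 (−0.88), CDKN1A (−0.54) and ATF4 (−0.41). ARG2 was at least 11.9-fold lower and STRADB at least 14.6-fold lower. The ratio was 0.0132 (0.00159 to 0.0485) for PID1 and 0.0104 (0.000262 to 0.0588) for MAN1A1. CEP70 lost its call in 4 of 19 settings, CHMP2A in 2 of 19 and RAB38 in 2 of 18 (highest adjusted p 0.0569).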

How the results depend on the processing

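The genes above and below the bulk numbered 2371 and 2162. The number above stayed within 1.5 times of this in all settings, and that below fell to 689 with limma. The genes below the background numbered 2 and came to 4 with DESeq2, 1 with 100 reads in every library, 1 without a filter, and 0 to 2 when each library was left out. Against Late_S, 2 genes were higher and 3 lower. These numbers became 37 and 52 with DESeq2 and 12 and 18 without a filter, while library totals gave 6 lower and 100 reads in every library 5 lower. Leaving out each library gave 1 to 2 higher and 1 to 6 lower. Against Early_S, 321 were higher, with 484 by DESeq2 and 203 to 319 when each library was left out (213 without Early_S replicate 1 and 203 without replicate 3). Against G1, 524 were lower, with 904 by DESeq2, 881 with library totals and 294 to 537 when each library was left out (294 without G1 replicate 1, 294 without replicate 2 and 309 without replicate 3). The fast limit over the median was 3.19. It was 3.34 for the conversion rate, 3.31 at 50 reads, 3.06 at 200 reads, 2.62 at 1000 reads (chosen after seeing the data) and 3.18 to 3.31 without each library. The slow limit was 0.355, with 0.474 at 1000 reads. By the conversion rate, 781 of 906 fast and 707 of 905 slow genes were shared, and 814 to 834 fast and 690 to 707 slow genes without each library. The log2 of the list median over that of all genes was −0.047 for condensin genes and changed sign to 0.048 without G2 replicate 1, with −0.064 as its lowest value when each G2 library was left out. For mitochondrial ribosomal proteins it was −0.048 and changed sign to 0.18 by the conversion rate and to between 0.016 and 0.035 without each library. Calls of named genes against the bulk held in 1144 cases, were lost in 73 and gained in 8. The cause of these changes was not tested. Motifs in 3′ windows were not run.

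No pairing by replicate number was seen, as the correlations of same-numbered deviations ran from −0.0272 to 0.0712. Because deviations of single genes scatter widely, such correlations cannot exclude that same-numbered libraries share a sort or culture. With a replicate block, 8461 genes were above and 1 below the background. Against Late_S 2 were higher and 3 lower, against Early_S 330 and 901, and against G1 498 and 524.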
